A study of Caenorhabditis elegans with 12 samples.

Results

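Several subunits of the respiratory chain are encoded in *C. elegans* by more than one gene, with a copy on the X chromosome and a copy on an autosome. The 10 genes described here are the X-linked genes asb-2, asg-2, ucr-2.1, ucr-2.2, gas-1 and sdha-1 and the autosomal genes asb-1, asg-1, ucr-2.3 and nduf-2.2, out of 17085 genes that the array could name (2355 X-linked and 14722 autosomal). They were taken by name as respiratory-chain genes with copies on both kinds of chromosome, and their transcript levels were compared across 4 genotypes. The 6 X-linked genes were chosen by their measured levels, which had already been seen to be high without MES-4. All values of mes-4 and of the double mutant against genotypes that carry MES-4 are therefore given below as a description, with no test, and counts past a threshold in those comparisons stand only beside their background. sdha-2, the autosomal copy of sdha-1, is shown beside them but is not one of the 10.

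Germlines were dissected from adult hermaphrodites grown at 20 °C, 24 hr after the L4 stage, and cut to hold the mitotic tip, early meiosis and pachytene to its late stage. The groups were lin-54(n3423); mes-4(ok2326) double mutants, mes-4(ok2326) mutants, lin-54(n3423) mutants and wild type (N2), each with 3 biological replicates on 12 arrays in all. All mutants were M+Z-, that is, homozygotes from heterozygous mothers, and each sample pooled many germlines. lin-54(n3423) is a large deletion and a null allele, without detectable transcript or protein in such adults, and mes-4(ok2326) is a deletion from which a shortened transcript is still made but no protein was seen by immunostaining in such germlines. LIN-54 is the DNA-binding subunit of the DRM complex (a transcription factor complex of E2F, Retinoblastoma-like and MuvB proteins), and MES-4 is a histone methyltransferase that marks lysine 36 of histone H3 on germline-expressed genes. RNA was amplified linearly, and the values are log2 levels of probe sets after normalization, so a difference of 1 is a doubling.

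The respiratory chain moves electrons through complexes I to IV in the mitochondrial inner membrane, and the ATP synthase uses the resulting proton gradient to make ATP. In the hermaphrodite germline both X chromosomes are kept at low expression, and autosomal copies of a few essential genes are used there; asb-1, for instance, is known in *C. elegans* as the germline form of ATP synthase subunit b, whereas asb-2 serves the soma. asg-2 and asg-1 encode subunit g of the same enzyme. ucr-2.1, ucr-2.2 and ucr-2.3 encode core protein 2 of complex III, gas-1 and nduf-2.2 a subunit of complex I, and sdha-1 and sdha-2 the flavoprotein subunit of complex II. ucr-2.3, asb-1 and nduf-2.2 lie on chromosome III, and asg-1 and sdha-2 on chromosome I.

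Array medians lay between 5.81 and 5.93, and arrays of a genotype correlated at 0.989 to 0.996 over probe sets. The lin-54 probe set averaged 6.60 in the double mutant, 10.78 in mes-4, 6.83 in lin-54 and 10.81 in wild type. On the lin-54 arrays it read 6.40, 7.76 and 6.32, so replicate 2 stood above the others. The more significant of the mes-4 probe sets averaged 9.47 in the double mutant, 9.09 in mes-4, 9.74 in lin-54 and 9.82 in wild type, and where its probes lie relative to the deletion is not known here. The median level of 18 germline marker genes was 10.3 to 11.1 on every array. Markers of somatic tissues were not uniformly low. The gonadal sheath list (8 genes) had medians of 6.78 to 6.85 in the double mutant, 6.38 to 6.65 in mes-4, 6.32 to 6.74 in lin-54 and 6.36 to 6.45 in wild type. In lin-54 and wild type, its gene inx-8 averaged 7.57 and 10.03, and lim-7 averaged 5.78 and 5.57. Medians over all arrays were 5.84 to 6.04 for the neuron list (10 genes) and 5.74 to 6.45 for the hypodermis list (9 genes). Of the muscle list (12 genes), the myosin gene myo-3 averaged 3.86 to 3.98 over the genotypes and the actin gene act-4 averaged 9.36 to 10.5. Of the intestine list (11 genes), the regulator elt-2 averaged 4.73 to 4.93 and the yolk protein gene vit-5 averaged 9.96 to 11.7, and the list median reached 9.29 on 1 mes-4 array. The sperm list (25 genes, most of them of the msp, or major sperm protein, family) stood apart in the genotypes without LIN-54. Its medians were 7.68 to 10.1 in the double mutant, 6.20 to 6.51 in mes-4, 6.99 to 9.79 in lin-54 and 6.35 to 6.52 in wild type. The other genes of this list moved less. In lin-54 and wild type, spe-9 averaged 6.54 and 6.48, spe-38 4.04 and 3.99, and spe-41 6.99 and 7.18. There gsp-3 averaged 6.87 and 6.18, and gsp-4 6.59 and 5.99. The samples are bulk tissue, so fewer cells of a type and less RNA per cell cannot be told apart.

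Without MES-4 the X-linked copies were high on every array, and the mes-4 arrays of their autosomal copies overlapped with wild type. gas-1, which is known for mutants with heightened sensitivity to volatile anaesthetics, read 11.33, 12.12 and 11.80 in the double mutant, 11.12, 11.96 and 11.73 in mes-4, 8.25, 7.82 and 8.12 in lin-54, and 8.52, 8.03 and 8.17 in wild type. All 6 arrays without MES-4 lay above all 6 arrays with it. Its second probe set averaged 11.67 in the double mutant, 11.38 in mes-4, 7.87 in lin-54 and 8.11 in wild type. nduf-2.2, the autosomal gene for the same subunit, read 11.87, 11.58 and 11.85 in the double mutant, 11.79, 11.70 and 11.35 in mes-4, 11.92, 11.90 and 11.91 in lin-54, and 11.81, 11.41 and 11.66 in wild type. Levels of different genes come from different probes and are not set against each other here, only their changes between genotypes.

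In complex III, ucr-2.1 read 10.80, 12.01 and 11.46 in the double mutant, 10.84, 11.77 and 12.06 in mes-4, 8.15, 7.55 and 7.35 in lin-54, and 8.29, 7.80 and 7.88 in wild type. Again no array without MES-4 overlapped with an array that had it, and the arrays of the double mutant and of mes-4 overlapped with each other. ucr-2.2 read 9.42, 11.14 and 10.09 in the double mutant, 7.64, 9.20 and 9.47 in mes-4, 6.97, 6.39 and 6.14 in lin-54, and 6.52, 6.32 and 6.07 in wild type. It was the X-linked copy whose averages stood furthest apart between the double mutant (10.22 ± 0.87) and mes-4 (8.77 ± 0.99; SD, n = 3 each). Its second probe set averaged 10.88 in the double mutant, 9.51 in mes-4, 7.35 in lin-54 and 7.37 in wild type. The autosomal copy ucr-2.3 read 12.47, 12.37 and 12.75 in the double mutant, 12.10, 12.03 and 11.97 in mes-4, 12.45, 12.55 and 12.46 in lin-54, and 12.02, 11.85 and 11.99 in wild type. This gene divided the arrays by LIN-54 and not by MES-4.

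For subunit b of the ATP synthase, asb-2 read 8.68, 10.64 and 10.04 in the double mutant, 9.31, 10.33 and 11.25 in mes-4, 7.64, 6.77 and 6.46 in lin-54, and 7.51, 7.19 and 7.59 in wild type. It varied most between replicates among the X-linked copies of the double mutant (SD 1.00, n = 3). asb-1 stayed between 12.40 and 12.77 on all 12 arrays. For subunit g, asg-2 read 10.34, 11.48 and 10.74 in the double mutant, 9.28, 10.81 and 10.82 in mes-4, 8.58, 7.76 and 7.61 in lin-54, and 8.45, 8.36 and 8.0 in wild type. asg-1 read 12.21, 12.41 and 12.32 in the double mutant, 12.08, 12.09 and 12.03 in mes-4, 12.34, 12.39 and 12.37 in lin-54, and 11.94, 12.03 and 12.13 in wild type. Like ucr-2.3, it lay higher on every array without LIN-54 than on any array with it.

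In complex II, sdha-1 read 10.18, 11.68 and 10.73 in the double mutant, 10.19, 11.45 and 11.29 in mes-4, 8.46, 7.89 and 7.76 in lin-54, and 8.74, 8.41 and 7.95 in wild type by the probe set that varied. Its other probe set, of a type that matches more than 1 transcript, stayed low, with averages of 6.37 in the double mutant, 6.32 in mes-4, 6.28 in lin-54 and 6.02 in wild type. The probe sets of sdha-1 thus disagree, and which transcripts the second one reads was not tested. sdha-2 averaged 11.90 in the double mutant, 11.82 in mes-4, 12.02 in lin-54 and 11.91 in wild type, with SDs of 0.10 to 0.16.

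**Figure D1:**
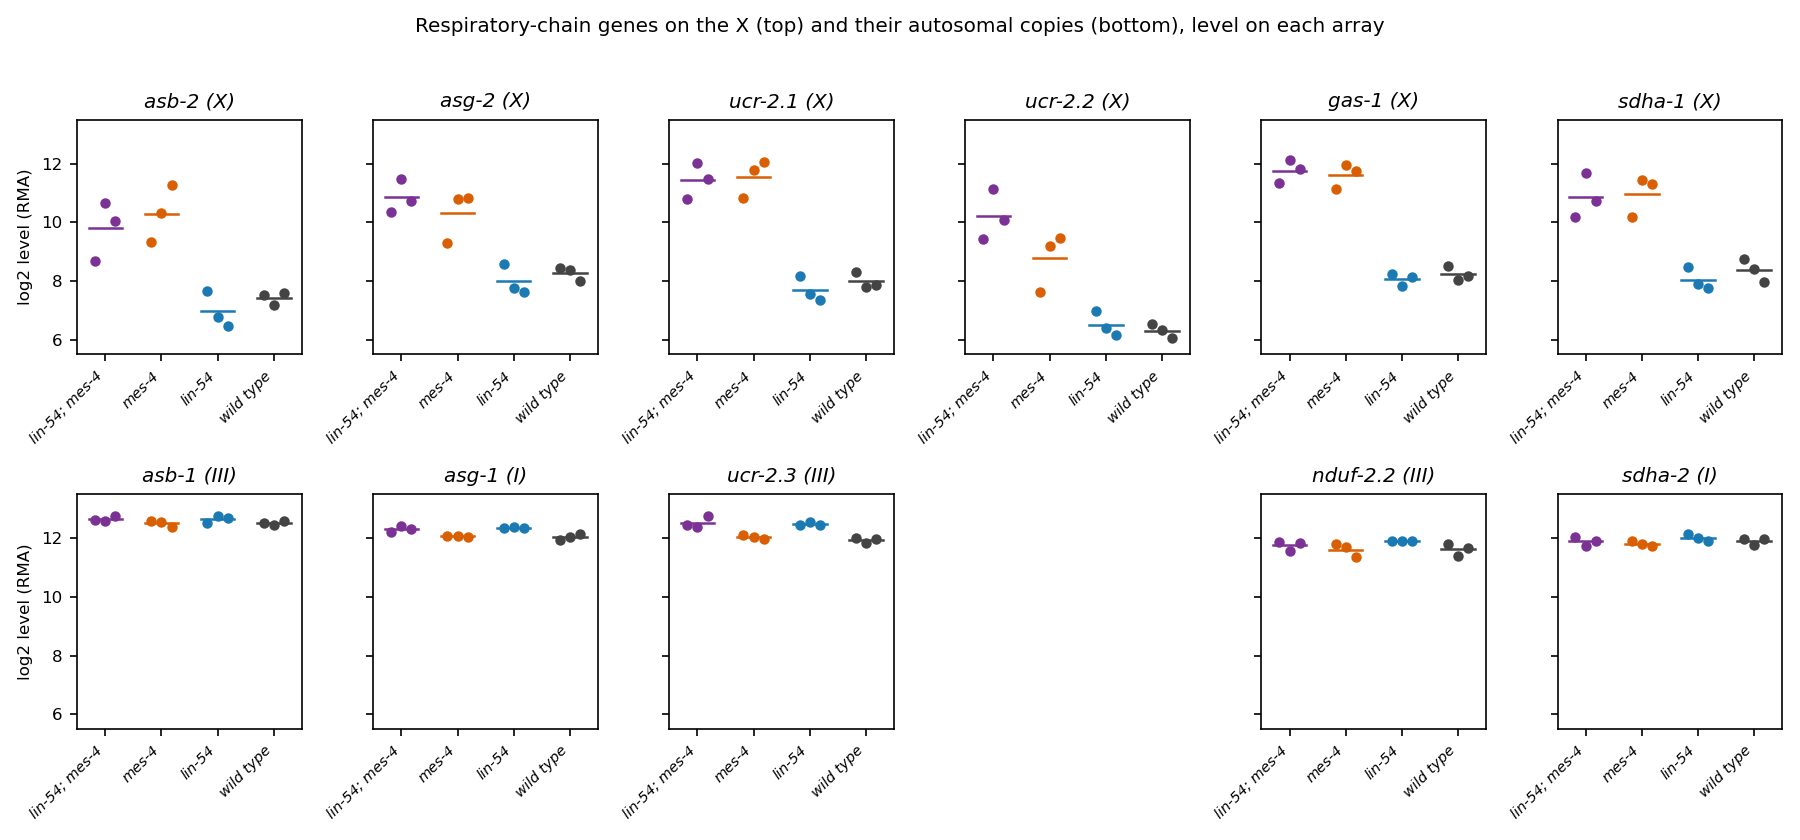
Log2 level (RMA, y axis) of each gene on each array (points, 3 per genotype) with the genotype mean (line), X-linked genes above and autosomal copies below. The X-linked genes sit high in the double mutant and mes-4 and low in lin-54 and wild type (gas-1 between 11.12 and 12.12 in the first pair of genotypes and 7.82 to 8.52 in the other), and asb-1 stays between 12.40 and 12.77.

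Expressed as log2 differences, mes-4 minus wild type was 3.56 (SE 0.35) for ucr-2.1, 3.36 (SE 0.24) for gas-1, 2.87 (SE 0.53) for asb-2, 2.61 (SE 0.40) for sdha-1, 2.47 (SE 0.48) for ucr-2.2 and 2.03 (SE 0.41) for asg-2. Among the 2355 X-linked genes these differences ranked 2, 5, 14, 29, 37 and 94 from the highest. The 4 autosomal copies differed by -0.01 to 0.08. Double mutant minus lin-54 was 3.74 for ucr-2.1, 3.72 for ucr-2.2, 3.69 for gas-1, 2.87 for asg-2, 2.83 for asb-2 and 2.83 for sdha-1. There the 4 autosomal copies differed by -0.15 to 0.04. The lowest was nduf-2.2 (-0.15, SE 0.13), whose double-mutant arrays all lay below its lin-54 arrays. A threshold on these differences is no test of the X-linked copies, since they were chosen by them, and nothing is read from the count of 6 of 6 past a q of 0.05. For the background, 17.7% of X-linked and 1.85% of autosomal genes were called higher in mes-4 against wild type, 8.96% and 0.639% in the double mutant against lin-54, and 6.2% and 1.49% in the double mutant against wild type. These comparisons share arrays with each other.

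The balance within a pair of copies shows the same values as a shift from X-linked towards autosomal or back, array by array. For each array the level of the autosomal copy was subtracted from that of the X-linked copy, averaging the probe sets of a gene, and the wild-type mean of this difference was set to 0. gas-1 minus nduf-2.2 stood at 2.80, 3.98 and 3.40 in the double mutant, 2.65, 3.58 and 3.76 in mes-4, -0.29, -0.71 and -0.48 in lin-54, and 0.10, 0.06 and -0.16 in wild type. ucr-2.1 minus ucr-2.3 averaged 2.86 in the double mutant, 3.48 in mes-4 and -0.84 in lin-54 relative to wild type (SE 0.44). In lin-54 this difference combined a lower reading of the X-linked copy (-0.31, SE 0.35) with a higher one of the autosomal copy (0.53, SE 0.10). ucr-2.2 minus ucr-2.3 averaged 3.14 in the double mutant and 2.22 in mes-4 (SE 0.61), asb-2 minus asb-1 averaged 2.22 in the double mutant and 2.87 in mes-4 (SE 0.67), and asg-2 minus asg-1 averaged 2.31 in the double mutant and 2.00 in mes-4 (SE 0.49). For sdha-1 minus sdha-2 the mean over probe sets gave 1.42 in the double mutant and 1.54 in mes-4, whereas the most variable probe set alone gave 2.50 in the double mutant and 2.69 in mes-4. In lin-54 all 6 differences were below wild type on average, from -0.84 to -0.15, none as far as 2 SE from 0, and this is given without a test.

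**Figure D2:**
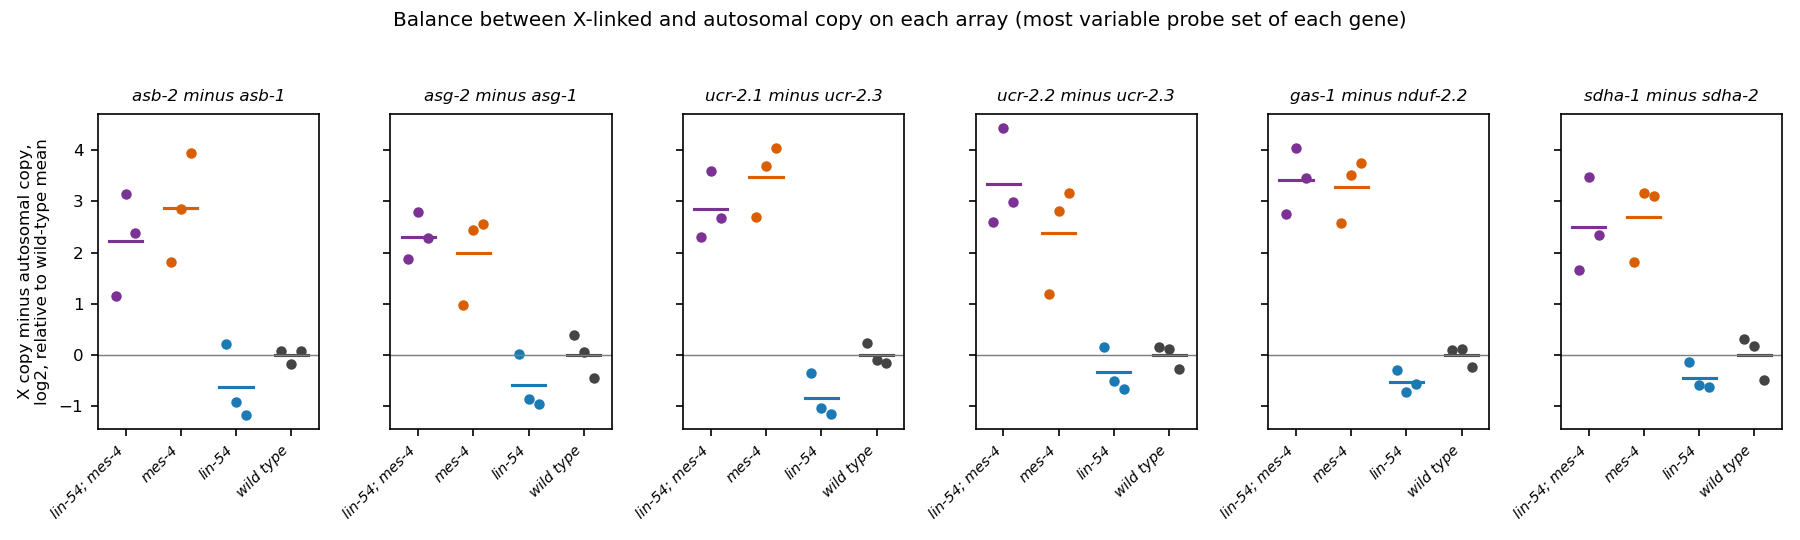
Level of the X-linked copy minus that of its autosomal copy (log2, y axis), by the most variable probe set of each gene, relative to the wild-type mean, for each array (points) with genotype means (lines). The arrays of the double mutant and mes-4 all lie above 0 (for sdha-1 the means are 2.50 in the double mutant and 2.69 in mes-4), and the lin-54 means lie below it.

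The 6 X-linked copies moved together between replicates of a genotype. After the genotype mean was taken off, each pair of them correlated over the 12 arrays at r = 0.774 (asb-2 and gas-1) to 0.973 (asg-2 and ucr-2.2), as a description, since all values of an array share one RNA preparation. Replicate 1 had the lowest reading of all 6 copies both in the double mutant and in mes-4. The median of the 6 genes, relative to wild type, was 2.44, 3.57 and 3.04 in the double mutant and 1.54, 2.82 and 3.22 in mes-4. The other 412 X-linked genes called higher in mes-4 had medians of 0.20, 0.60 and 0.34 in the double mutant and 0.77, 1.11 and 1.48 in mes-4. Replicate 1 was thus the lowest array of its genotype for these genes too. The 412 were picked by their mes-4 and wild-type values, and the 6 by high values without MES-4. The medians of the 412 and of the 6 are therefore not compared. The intestine marker list had medians of 7.43, 6.62 and 7.37 in the double mutant and 9.29, 8.07 and 6.86 in mes-4. The muscle list read 7.58, 6.26 and 7.42 in the double mutant and 6.59, 6.88 and 6.10 in mes-4. The part of these tissues in the readings of the X-linked copies was not tested.

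The differences without LIN-54 were not the values used to choose the genes, and they were tested. These contrasts use the same arrays as the choice, and the genes were chosen with earlier results of these data known, which limits the tests. None of the 6 X-linked copies was called in lin-54 against wild type, in the double mutant against mes-4, or over all 6 arrays without LIN-54 against the 6 with it (limma with Storey q over all probe sets; 1 of 6 had an unadjusted p under 0.05 each time, and none was called with the Benjamini-Hochberg adjustment). In the double mutant against mes-4 and over both backgrounds this gene was ucr-2.2. In lin-54 against wild type it was sdha-1, and only by the probe set that stayed low (0.26, SE 0.11), whereas the one that varied gave -0.33 (SE 0.40). The pooled contrast combines the other pair and is no independent evidence. In these comparisons 6.2%, 11.6% and 26.1% of all X-linked genes were called in either direction. As examples, gas-1, by the probe set listed by array above, differed by 0.15 between the double mutant and mes-4 (95% interval -0.38 to 0.67) and by -0.18 between lin-54 and wild type (-0.70 to 0.34). Its second probe set, the more significant one here, gave 0.29 (-0.30 to 0.87) and -0.24 (-0.82 to 0.35) in these comparisons. ucr-2.1 differed by -0.13 (-0.89 to 0.63) and -0.31 (-1.07 to 0.46) in these comparisons, and asb-2 by -0.51 (-1.67 to 0.65) and -0.48 (-1.63 to 0.68). The intervals of asb-2 span a change of more than 1 on the log2 scale, so smaller changes of this gene were not detectable with 3 arrays a group.

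ucr-2.2 had the largest difference among the X-linked copies in the double mutant against mes-4, which was not called. Its level in the double mutant exceeded that in mes-4 by 1.45 (SE 0.48, 95% interval 0.39 to 2.50, q = 0.0806 by limma), with 1 double-mutant array below the highest mes-4 array, and its second probe set gave 1.37 with no overlap of the arrays (q = 0.0928). lin-54 minus wild type was 0.20 (SE 0.48, q = 0.517), and it was -0.39 without lin-54 replicate 1. Pooled over both backgrounds the difference was 0.82 (SE 0.34, q = 0.0659), which ranked 1 from the highest among 2355 X-linked genes, each taken by its most variable probe set. It passed the threshold without mes-4 replicate 3 (q = 0.0498) or without replicate 1 of the double mutant (q = 0.0425). The interaction, that is, the double mutant minus lin-54 minus the same difference between mes-4 and wild type, was 1.39 (SE 0.68) by the second probe set and was not called. No member was called in the interaction by limma and none had an unadjusted p under 0.05, in a test that called 0.0351% of all genes.

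Other X-linked genes that were high without MES-4 gave a frame for these values. Besides the 6 respiratory genes, 77 X-linked genes were at least 4-fold higher both in mes-4 against wild type and in the double mutant against lin-54. Over the arrays without LIN-54 against those with it, 26 of the 77 were called lower and 1 higher, with a median difference of -0.43. Of all X-linked genes, 26.1% were called there in either direction, and the shares by direction are not given here. The 6 respiratory genes differed by -0.49 (asb-2), -0.22 (sdha-1), -0.22 (ucr-2.1), 0.03 (gas-1), 0.13 (asg-2) and 0.82 (ucr-2.2) by their most variable probe sets. None of these was called lower or higher, and whether the respiratory genes differ from the 77 others was not tested.

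**Figure D3:**
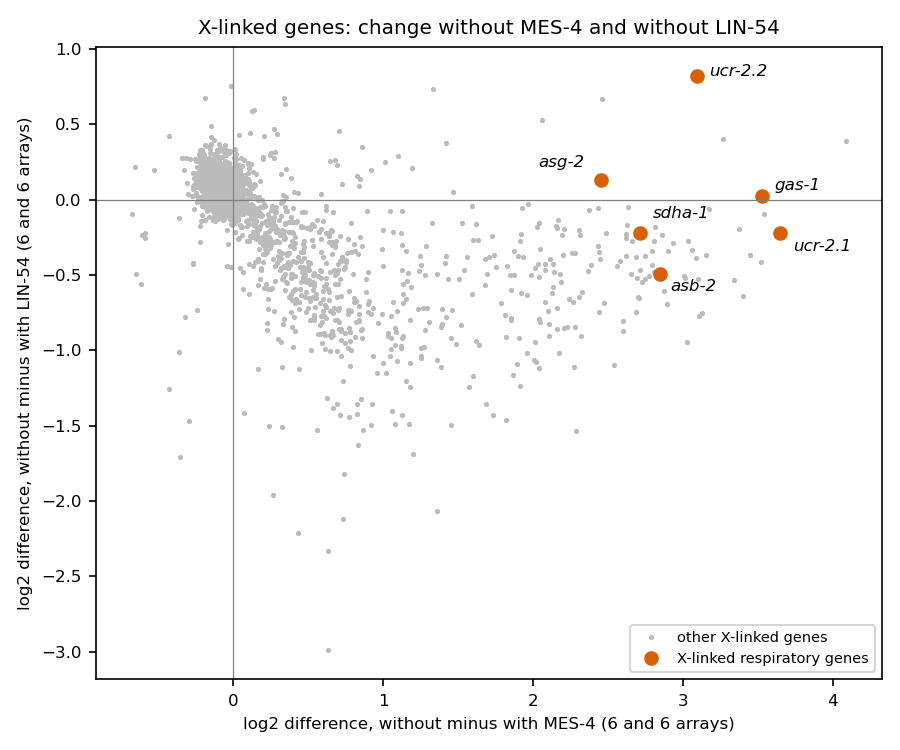
Log2 difference without minus with MES-4 (x axis) and without minus with LIN-54 (y axis), 6 arrays against 6 each, for 2355 X-linked genes by their most variable probe set. The 6 respiratory genes (large points) lie at 2.45 to 3.65 on the x axis, and ucr-2.2 is the highest of all points on the y axis (0.82).

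Among the autosomal copies, ucr-2.3 and asg-1 rose without LIN-54. ucr-2.3 was raised in the double mutant against mes-4 by 0.49 (SE 0.10, q = 0.0106) and higher in lin-54 than in wild type by 0.53 (SE 0.10, q = 0.0112; limma, Storey q). Over both backgrounds it rose by 0.51 (SE 0.07, q = 5.02e-04), and each of the 6 arrays without LIN-54 lay above each of the 6 with it. With only the double-mutant and mes-4 arrays in the model its q was 0.0586. asg-1 rose by 0.33 in lin-54 against wild type (SE 0.08, q = 0.0249), differed by 0.25 between the double mutant and mes-4 (SE 0.08, q = 0.0623), and rose by 0.29 over both backgrounds (SE 0.05, q = 0.0026). Its second probe set gave 0.30 in lin-54 against wild type (q = 0.0788) and was called over both backgrounds (0.27, q = 0.0139). Its call in lin-54 against wild type was lost without wild-type replicate 1 (q = 0.10), wild-type replicate 2 (q = 0.0647), lin-54 replicate 2 (q = 0.0736) or lin-54 replicate 3 (q = 0.0936), and with arrays centred on autosomal probe sets (q = 0.0713).

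Of the 4 autosomal copies, 2 were thus called higher in lin-54 against wild type, where 2.69% of autosomal genes were, 1 in the double mutant against mes-4 (2.68%), and 2 over both backgrounds (12.1%). nduf-2.2 differed by 0.22 over both backgrounds (SE 0.09, q = 0.0717) and asb-1 by 0.14 (SE 0.06, q = 0.08). sdha-2 differed by 0.10 (SE 0.07, q = 0.194). The differences of ucr-2.3 and asg-1 were small, but their replicates lay close together, with SDs of 0.02 to 0.20. The median of the sperm list, most of it msp genes, was higher on the same arrays, and its part in these values was not tested. On the lin-54 arrays the sperm list read 9.79, 6.99 and 8.67, ucr-2.3 read 12.45, 12.55 and 12.46, and asg-1 read 12.34, 12.39 and 12.37. On the double-mutant arrays the sperm list read 10.09, 7.68 and 9.50, ucr-2.3 read 12.47, 12.37 and 12.75, and asg-1 read 12.21, 12.41 and 12.32.

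**Figure D4:**
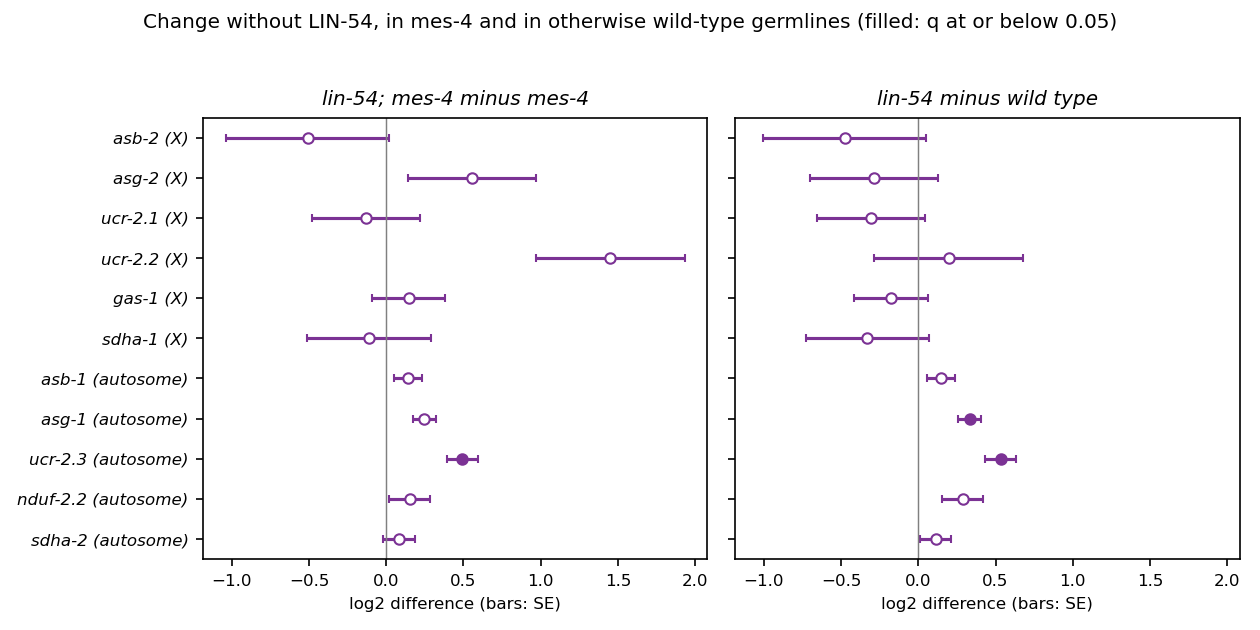
Log2 difference (x axis; bars are the SE) without LIN-54 in the mes-4 background (left) and in the wild-type background (right) for the X-linked copies and the autosomal copies, by the probe set with the strongest mes-4 difference; filled points have q at or below 0.05. ucr-2.3 is called on both sides (0.49 and 0.53) and asg-1 on the right (0.33), and the X-linked copies have wide bars and no call.

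Other genes of the respiratory chain, almost all autosomal, were taken from lists for the 4 complexes, the ATP synthase and the adenine nucleotide carriers (53 of 55 listed genes on the array, 1 of them X-linked). The lists are not complete. The complex I gene ndua-13, for instance, is on the array but was not counted. The complex III list includes cytochrome c genes, and the complex IV list includes assembly genes such as cox-10 and sco-1. Over both backgrounds 36 of the 53 were higher and 2 lower without LIN-54, where 11.7% of all genes were called higher and 10.9% lower, and their median difference was 0.26 against 0.05 for all genes. By list, 11 of 14 genes for complex I, 3 of 4 for complex II and 2 of 5 for complex III were called higher. So were 10 of 14 listed for complex IV and 9 of 12 for the ATP synthase. isp-1, the Rieske iron-sulfur protein of complex III, rose by 0.39 (SE 0.06, q = 8.21e-04), and was named after its value was seen. The 2 genes called lower were ant-1.1, an adenine nucleotide carrier (-0.34, SE 0.05), and mai-1, a homolog of the ATP synthase inhibitor protein and the X-linked gene of the lists (-0.33, SE 0.08). Muscle markers also read higher on some arrays without LIN-54 (list medians of 6.26 to 7.58 in the double mutant, 6.10 to 6.88 in mes-4, 5.96 to 7.61 in lin-54 and 6.36 to 6.55 in wild type). Their part in this was not tested.

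Within each background fewer genes of the lists passed. In lin-54 against wild type 14 were called higher and 1 lower, where 2.58% and 3.47% of all genes were, and in the double mutant against mes-4 12 were called higher and 1 lower, where 2.41% and 5.36% were. The gene called lower was ant-1.1 both times. These totals of 15 and 13 rested on single arrays in part. In lin-54 against wild type the total was 7 and 3 without lin-54 replicates 2 and 3, and 4, 5 and 8 without wild-type replicates 1, 2 and 3. In the double mutant against mes-4 it was 6, 6 and 5 without replicates 1, 2 and 3 of the double mutant, and 2 and 7 without mes-4 replicates 1 and 3. Without shared probe sets 3 genes in all were called in lin-54 against wild type and 6 in the double mutant against mes-4. In mes-4 against wild type none of the 53 was called higher (limma; 4 had an unadjusted p under 0.05) and cox-19, a copper chaperone for complex IV, was called lower (-0.34), beside 4.04% and 1.95% of all genes. In the double mutant against lin-54 none was higher (0 with an unadjusted p under 0.05) and ant-1.3, another adenine nucleotide carrier, was lower (-0.78), beside 1.79% and 1.14%.

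Genes with the pattern most like that of the X-linked copies lay on the X as well. The mean profile of the 6 genes over the 12 arrays was set against 1077 other genes whose level varied by an SD of at least 0.5. The 5 highest correlations were with vhl-1, the worm gene for the von Hippel-Lindau protein (r = 0.997), snrp-40.1, a spliceosomal protein gene (r = 0.993), R08E3.3 (r = 0.993), cas-1 (r = 0.991) and F35A5.8 (r = 0.990), all X-linked. Of the 158 genes with r above 0.9, 143 were X-linked. The X-linked share of the 1077 genes is not given here, and the SD floor favours genes that change between genotypes. Nothing is therefore read from this count. The 5 autosomal genes with the highest values were sph-1, atg-16.2, M176.11 and T16G12.4 (r = 0.949 to 0.950) and his-37 (r = 0.942), which ranked 92 to 107. The 12 arrays fall into 6 with and 6 without MES-4, so these correlations are given as a description. vhl-1 differed by 2.05 between mes-4 and wild type, and sph-1, the most similar autosomal gene, by 0.99.

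The surroundings of the X-linked copies differed from gene to gene. Within 5 places to either side in the gene order of the reference annotation (assembly WBcel235, genes on the array only), 19 of 60 neighbours (31.7%) were called higher in mes-4 against wild type, beside 17.7% of all X-linked genes. Of the 10 neighbours of gas-1, 8 were called, among them nipi-3 (3.13), usp-33 (2.34), dyn-1, which encodes dynamin (2.12), rab-14 (2.08) and K09E9.3 (2.07). asb-2 had 5 such neighbours, the highest of them atg-16.1 (1.82) and aps-2 (1.77). sdha-1 had 3, which were the H3K27 demethylase genes utx-1 (2.74) and jmjd-3.1 (0.57) and dhhc-14 (1.08). In contrast, 1 neighbour each was called at ucr-2.1 (C49F5.6, 1.85), ucr-2.2 (pkhm-2, 2.52) and asg-2 (glr-6, 0.57), so ucr-2.1, with the largest difference of the 6 genes, stood among genes with small ones (median -0.05). Fewer of these neighbours were called higher in the double mutant against lin-54 as well, where 8.96% of X-linked genes were. They numbered 5 at gas-1, 2 at sdha-1, 1 each at asb-2, ucr-2.1 and ucr-2.2, and 0 at asg-2. No neighbour of the 4 autosomal copies was called higher in mes-4 against wild type. Only 1.85% of all autosomal genes were called there, so nothing is read from this.

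**Figure D5:**
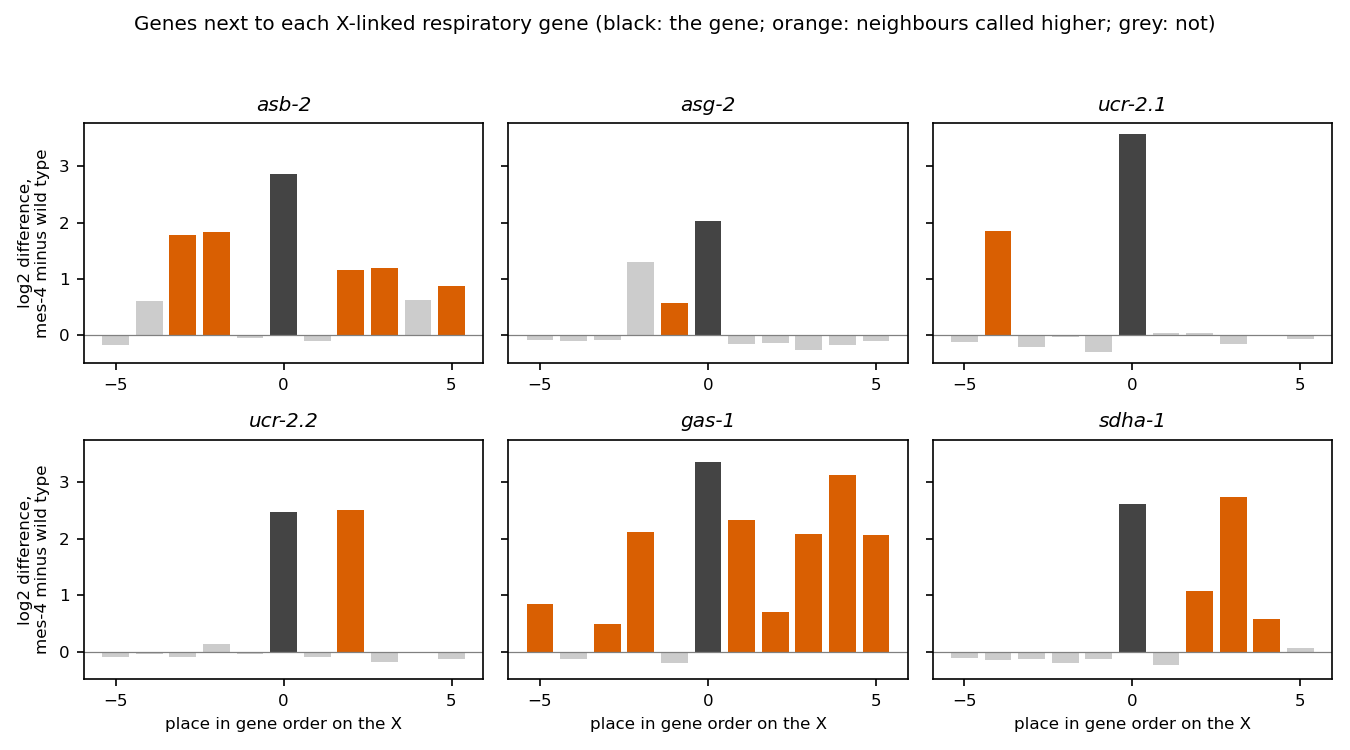
Log2 difference, mes-4 minus wild type (y axis), of each X-linked respiratory gene (place 0, black) and of the 5 genes on either side of it in the gene order of the X (x axis); orange bars were called higher and grey bars were not. gas-1 has 8 called neighbours and asb-2 has 5, whereas ucr-2.1, ucr-2.2 and asg-2 have 1 each.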

How the data were processed

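The values are the deposited log2 probe-set levels of 12 Affymetrix *C. elegans* arrays (3 per genotype). According to the methods, the authors obtained them with the affy package by quantile normalization and the robust multichip average (RMA), whose versions are not given in the sources used here, and they were not normalized again. RNA was amplified in a single linear round. RMA compresses changes of genes near background, and the number of arrays limits precision. The array carries 22548 probe sets and 77 controls. Probe sets with 1 gene in the platform annotation (20766) were used for genes, and 20701 of these matched the reference annotation, giving 17085 genes.

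Genotype means were estimated from the 12 arrays together in limma 3.58.1 (R 4.3.3). Two-sided moderated tests gave Storey q-values over the 22548 probe sets of a contrast (lambda 0 to 0.9 in steps of 0.05, spline with 3 degrees of freedom), called at q at or below 0.05. The SE and the 95% interval are those of the moderated fit. A gene took its most significant probe set for calls and counts, and single values of a gene with several probe sets are by the set whose arrays are listed, unless another is named. Contrasts were mes-4 and lin-54 against wild type, the double mutant against each other genotype, arrays without against with LIN-54, and the interaction. Differences between copies were taken per array, with an SE from the pooled spread, and not tested. The model was tested on simulated data.

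The 10 genes, the lists and the tests were chosen with earlier results of these data known. Named genes were all 10 members, sdha-2, lin-54 and mes-4, and list genes in counts of 5 or fewer. Also named were the 5 genes and 5 autosomal genes most like the X-linked copies. Neighbours and single marker genes were given as examples, chosen after their values were seen. Markers of germline, sheath, sperm, muscle, intestine, neuron and hypodermis were summarised as list medians. Alternatives left out each array, added the replicate number as a block, used only the genotypes compared, the Benjamini-Hochberg adjustment, centring on autosomal probe sets, no shared probe sets, or only probe sets above the median level in at least 3 arrays. An alternative without replicate 1 of lin-54 and of the double mutant, which had the highest sperm list medians, was chosen after seeing the data.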

Additional observations from a re-analysis of the deposited data

How the results depend on the processing

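The 24 calls of the 10 genes and sdha-2 kept their sign under every alternative. Most of them were of X-linked copies in comparisons whose values were seen when these genes were chosen, so this is no test of those calls. Some calls were lost, as that of asb-2 in the double mutant against wild type without replicate 2 of the double mutant (q = 0.0899 by limma). Of 53 differences that were not called, 23 changed sign under at least 1 alternative. Left out 1 array at a time, ucr-2.2 in lin-54 against wild type ranged from -0.39 (without lin-54 replicate 1, and also with replicate 1 of the double mutant left out) to 0.38. Respiratory genes called then numbered 4 to 6 in mes-4 against wild type, 5 to 6 in the double mutant against lin-54, 6 to 7 against wild type, 1 to 2 in lin-54 against wild type, 1 in the double mutant against mes-4, 2 to 3 over both backgrounds and 0 in the interaction. Genes of the respiratory lists called numbered 0 to 1, 0 to 1, 2 to 12, 3 to 19, 2 to 14, 29 to 38 and 0 in the same comparisons, against 1, 1, 12, 15, 13, 38 and 0 with all arrays. In the first 3 comparisons 17.7%, 8.96% and 6.2% of X-linked genes were called higher with all arrays, and nothing is read from the X-linked copies called there. Of the 6 to 7 members in the double mutant against wild type, 5 to 6 were X-linked and 1, ucr-2.3, was autosomal. Of autosomal genes, 2.69%, 2.68% and 12.1% were called higher in the 3 comparisons for LIN-54. With only the genotypes compared in the model, no member and 2 list genes were called in the double mutant against mes-4 and 0 list genes in the double mutant against lin-54. Centring on autosomal probe sets left 1 member in lin-54 against wild type, 7 list genes in the double mutant against mes-4 and 0 in mes-4 against wild type. Without shared probe sets (on which 2 members, gas-1 and asb-1, rest entirely) 3 list genes were called in the double mutant and 3 in lin-54 against wild type, 6 in the double mutant against mes-4 and 19 over both backgrounds, with 30 of the 53 list genes measured. With only probe sets above the median level, 3 members were called in the double mutant against mes-4, among them ucr-2.2 (q = 0.0462), and 4 over both backgrounds, as fewer probe sets were tested. Without replicate 1 of lin-54 and of the double mutant, chosen after seeing the data, 7 list genes were called in the double mutant against mes-4. Other counts stayed within 1.5 times, and the cause of these shifts was not tested.

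The replicate numbers were checked for pairing. Deviations of same-numbered arrays from their genotype means correlated at -0.07 to 0.43, above 0.1 in 9 of 18 pairs, and averaged over the arrays of a number each of the 12 arrays correlated best with its own number (the single best partner had the same number for 11 of 12), which is a hint from the data and not from the design. With the replicate number as a block the counts of respiratory genes called were the same, 2, 1 and 2 in lin-54 against wild type, the double mutant against mes-4 and both backgrounds, and 2 genes of the lists were called in mes-4 against wild type.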
